A study of Arabidopsis thaliana with 8 samples.

Results

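The 6 genes described here encode carriers that move auxin across the plasma membrane: the importers *AUX1* (AT2G38120), *LAX1* (AT5G01240), *LAX2* (AT2G21050) and *LAX3* (AT1G77690), and the transporters *ABCB1* (AT2G36910) and *ABCB19* (AT3G28860). They were chosen by locus, as 6 of the 37573 rows of the count table. The rule held no measured value, but the choice was made with earlier results of these data known. All 6 passed the filter on low counts and were among the 21289 genes tested. RNA sequencing was performed on hypocotyls of 4-week-old *Arabidopsis thaliana* plants carrying *SMXL7pro:SMXL7d53-GR*, with 4 libraries from plants watered with 15 µM dexamethasone (DEX) and 4 libraries from plants that received the solvent DMSO at the same volume (mock). Hypocotyls were taken 5 h after watering, from plants kept for 3 weeks in short days of 10 h light and for 1 week in long days of 16 h light.

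Plants of both treatments thus carried the same transgene, in a background labelled wild type. It is driven by the promoter of *SMXL7*, so the fusion protein is made only where this promoter is active. SMXL7 is a repressor protein that strigolactone signalling removes, the d53 version resists this removal, and the glucocorticoid receptor (GR) part ties its activity to DEX. All libraries analysed here came from plants with the transgene, so an effect of DEX itself cannot be told apart from an effect of the fusion protein. The study's methods state that distinct samples were measured, but neither they nor the labels say whether libraries came from separate plants or pots, so p-values measure only the spread between these libraries.

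Auxin enters cells partly by diffusion of its protonated form and partly through AUX1 and the LIKE AUX1 (LAX) proteins, which import it together with protons. Inside the cell auxin is mostly an anion, which leaves through PIN proteins and through ABC transporters of the B class, of which ABCB1 and ABCB19 carry much of the stream down the stem. In stems and hypocotyls, this traffic supplies the cambium and the differentiating vascular tissue with auxin.

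Libraries held between 47976811 and 63996960 counts for DEX and between 49220724 and 85953231 counts for mock, and the 6 genes took between 0.0851% and 0.107% of a library. The biological coefficient of variation over all genes was 0.0662. Reads of *SMXL7*, which can come from the native gene or the transgene, averaged 24703 ± 257 normalised counts in DEX and 33487 ± 1913 in mock libraries (mean ± SD, n = 4). Each DEX library lay below each mock library, with a log2 fold change of -0.44 (adjusted p = 1.52e-05 by the edgeR quasi-likelihood test). Since DEX acts on the fusion protein, this transcript level is no check of the induction. Among marker genes of tissues, those of cambium, phloem, xylem and periderm were present in all libraries. The root tip and root hair markers *WOX5*, *COBL9* and *RHD6* together reached between 0.310 and 0.428 RPKM in DEX and between 0.352 and 0.827 RPKM in mock libraries, where RPKM is the count per kilobase of exon, scaled to a fixed library size. A gene is called here when its Benjamini-Hochberg adjusted p is under 0.01, its change is over 1.5-fold and its mean normalised count is over 50. By this rule 4.64% of the tested genes were called higher and 1.81% were called lower in DEX libraries, and the median log2 fold change (DEX over mock) of all tested genes was -0.0061.

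Of the 4 importers, *AUX1* and *LAX2* rose in DEX-treated hypocotyls, by 1.62-fold and 1.77-fold. *LAX1*, *LAX3*, *ABCB1* and *ABCB19* were not called, with fold changes between 0.896 and 1.098. Thus 2 of the 6 genes were called higher, against 4.64% of all tested genes, and 0 were called lower by edgeR or by DESeq2, against 1.81%. At an unadjusted p under 0.05, 3 of the 6 were higher and 2 lower, against 20.9% of all tested genes in each direction. Without the fold threshold, the same 2 genes had an adjusted p under 0.01, which 19.6% of the tested genes had in either direction.

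*AUX1* encodes the founding member of the importer family, known for its role in root gravitropism. The gene lies on the plus strand of chromosome 2 at 15972876 to 15977180 (TAIR10.1), with 2 annotated transcripts and 2844 bases of exon. Its normalised counts were 21413, 22112, 22264 and 21738 in the DEX libraries, against 13879, 12813, 13791 and 13552 in the mock libraries. All DEX libraries lay above all mock libraries, and the gap between the treatments was far wider than the spread within either. The means were 21882 ± 383 and 13509 ± 484 normalised counts (DEX and mock, SD, n = 4). The log2 fold change was 0.70 (SE 0.041, 95% interval 0.61 to 0.78, adjusted p = 1.40e-07 by the edgeR quasi-likelihood test). When the change was tested against the 1.5-fold threshold itself rather than against 0, the adjusted p of *AUX1* was 0.0498, so that it was no longer called.

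*LAX2*, known for its part in the continuity of cotyledon veins, lies on the plus strand of chromosome 2 at 9034056 to 9036636, with 6 exons of 1882 bases in all. Its normalised counts were 11008, 11479, 11779.7 and 11673 in the DEX libraries, against 6759, 6338, 6334 and 6509.55 in the mock libraries. Again the treatments did not overlap. The means were 11485 ± 342 in DEX and 6485 ± 200.1 in mock libraries (SD, n = 4), and the log2 fold change was 0.82 (SE 0.041, 95% interval 0.74 to 0.91, adjusted p = 3.84e-08). Tested against the 1.5-fold threshold itself, *LAX2* had an adjusted p of 2.88e-04 and was still called.

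**Figure D1:**
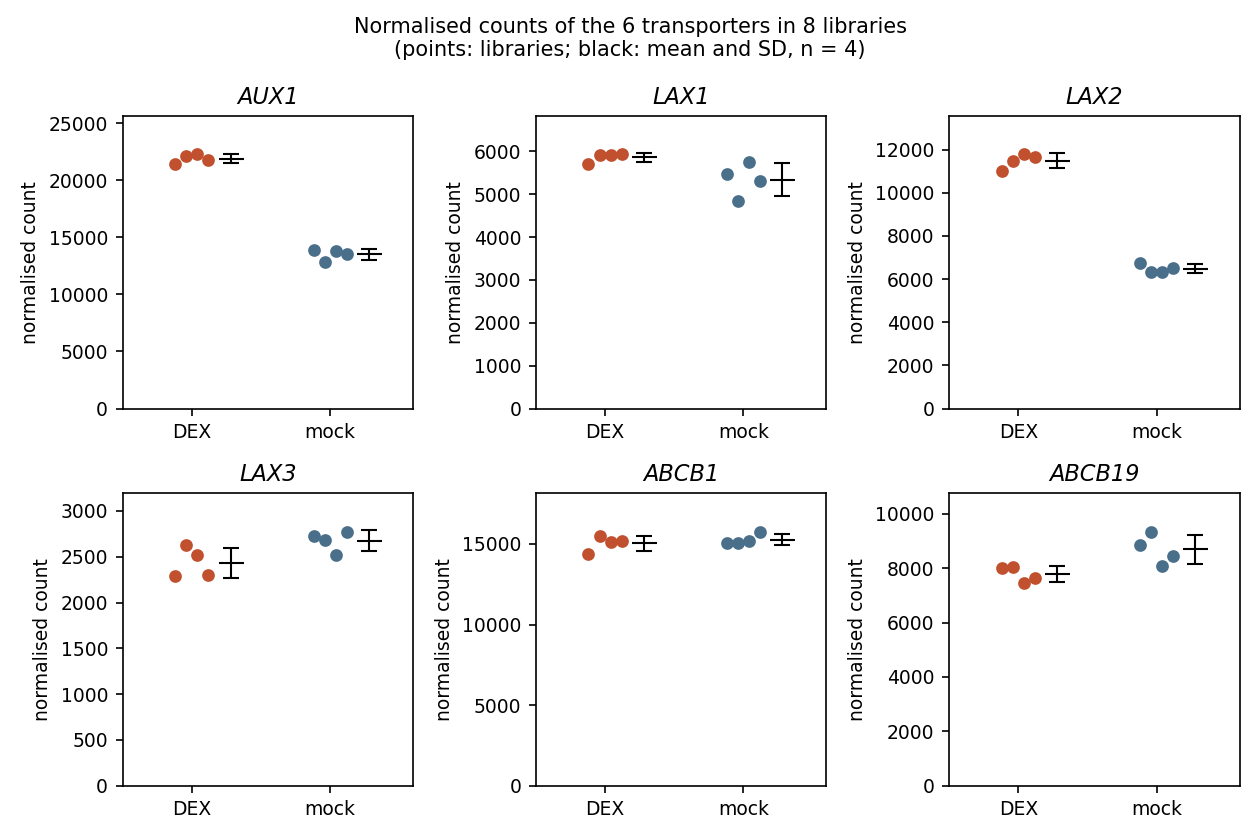
Normalised counts (y axis, from 0) of the 6 transporter genes in the 4 DEX libraries (left in each panel) and the 4 mock libraries (right), with the mean and SD in black. For *AUX1* the lowest DEX library is at 21413 and the highest mock library at 13879, *LAX2* is split likewise, and the other genes differ little between treatments.

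The remaining importers stayed within 1.5-fold. *LAX1*, which acts with *AUX1* and *LAX2* in leaf arrangement at the shoot tip, lies on the plus strand of chromosome 5 at 97536 to 101835. It had 5705, 5905, 5920.3 and 5928 normalised counts in the DEX libraries, against 5468, 4841, 5747 and 5303 in the mock libraries. The DEX libraries lay close together, 3 of them above all mock libraries and DEX replicate 1 just below mock replicate 3. The log2 fold change of *LAX1* was 0.13 (SE 0.0498, 95% interval 0.027 to 0.24, adjusted p = 0.0567). *LAX3*, known for its role in the emergence of lateral roots, lies on the minus strand of chromosome 1 at 29200417 to 29203418. It had 2295, 2626, 2523 and 2303 normalised counts in the DEX libraries, against 2731, 2680.2, 2514 and 2776 in the mock libraries. The treatments overlapped, and the log2 fold change of *LAX3* was -0.13 (SE 0.051, 95% interval -0.24 to -0.021, adjusted p = 0.0674).

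The 2 ABCB genes encode exporters with broad activity in stems, and both need the immunophilin-like protein TWD1 to reach the plasma membrane. *ABCB1* lies on the plus strand of chromosome 2 at 15501726 to 15507501. It had 14386, 15495, 15142 and 15189.6 normalised counts in the DEX libraries, against 15088, 15032, 15167 and 15772 in the mock libraries. These ranges overlapped in part, and the log2 fold change was -0.020 (SE 0.0399, 95% interval -0.11 to 0.066, adjusted p = 0.745). The interval thus leaves room for a change of at most 1.05-fold upward and 0.929-fold downward. *ABCB19* lies on the minus strand of chromosome 3 at 10870005 to 10877578. It had 7996, 8059, 7435 and 7635 normalised counts in the DEX libraries, against 8857, 9346, 8094 and 8462 in the mock libraries. Each DEX library was below each mock library, but by a small margin, since DEX replicate 2 and mock replicate 3 nearly met. The log2 fold change of *ABCB19* was -0.16 (SE 0.0497, 95% interval -0.27 to -0.051), and its adjusted p of 0.0278 missed the threshold. Together with *AUX1* and *LAX2*, it made 3 of the 6 genes whose treatments did not overlap, a pattern shown by 31.3% of the tested genes in either direction.

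**Figure D2:**
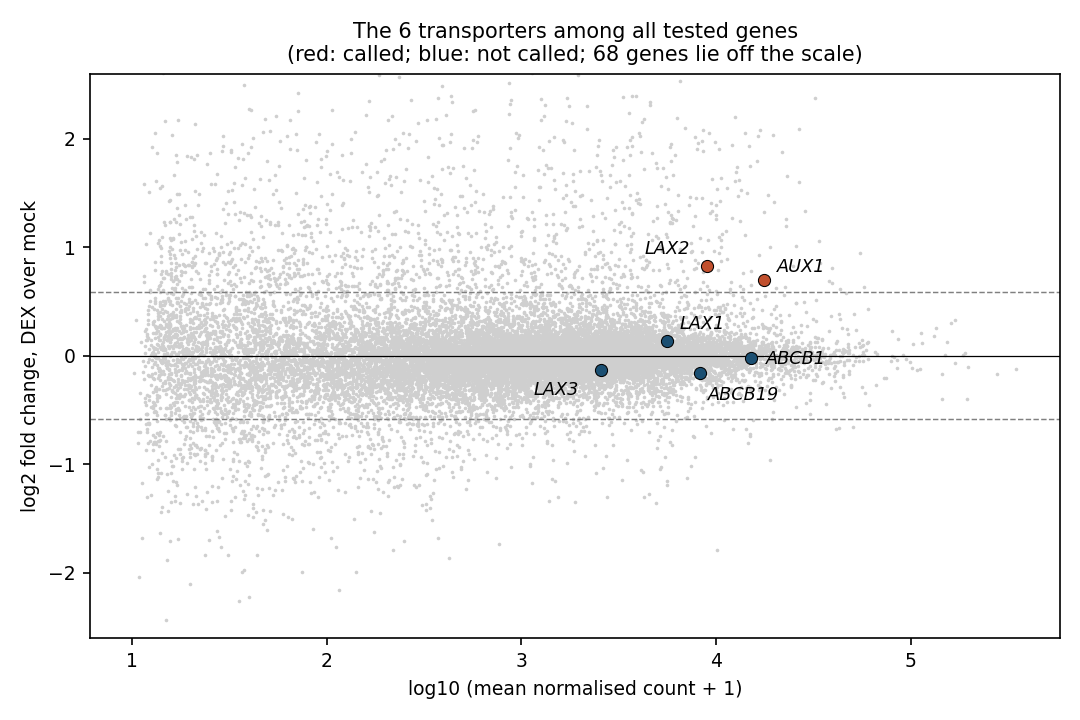
Log2 fold change (y axis, DEX over mock) against the mean normalised count on a log10 scale (x axis) for the tested genes (grey), with the 6 transporters marked in red where called and in blue where not, and with dashed lines at 1.5-fold. *AUX1* and *LAX2* lie above the upper line at high counts, and the other 4 genes lie near 0.

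The changes within a family were compared through the log2 ratio of 2 genes' counts in the same library, which needs no scaling between libraries. Of 7 pairs, 5 reached the smallest p that 4 libraries against 4 allow in a two-sided exact permutation test, p = 0.0286, or 0.0400 after Benjamini-Hochberg adjustment over the 7 pairs. *LAX2* gained 0.96 on the log2 scale over *LAX3*, and *AUX1* gained 0.83 over *LAX3*. The log2 ratio of *AUX1* to *LAX1* was 1.900 ± 0.017 in DEX and 1.341 ± 0.059 in mock libraries, a difference of 0.56. The log2 ratio of *LAX1* to *LAX2* changed by -0.69. The 2 called genes differed from each other as well, with a log2 ratio of *AUX1* to *LAX2* of 0.93 ± 0.028 in DEX and 1.06 ± 0.046 in mock libraries, so that *LAX2* gained 0.13 over *AUX1*. For *LAX1* over *LAX3* the difference was 0.27 (exact p = 0.0571, adjusted p = 0.0667), and for *ABCB1* over *ABCB19* it was 0.14 (exact p = 0.114, adjusted p = 0.114). These last 2 pairs missed 0.05.

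Levels of different genes can be compared only per length of exon. On the RPKM scale, the order in DEX libraries was *AUX1* with 127 ± 2.22 RPKM, *LAX2* with 101 ± 2.996 RPKM, *ABCB1* with 52.3 ± 1.64 RPKM, *LAX1* with 39.4 ± 0.717 RPKM, *ABCB19* with 29.6 ± 1.13 RPKM and *LAX3* with 17.3 ± 1.16 RPKM (SD, n = 4). None of the neighbours in this order had overlapping libraries. In mock libraries *AUX1* had 78.4 ± 2.81 RPKM, *LAX2* had 56.9 ± 1.75 RPKM and *ABCB1* had 53.1 ± 1.19 RPKM, with the lowest *LAX2* library at 55.5 RPKM just above the highest *ABCB1* library at 54.8 RPKM. They were followed by *LAX1* with 35.9 ± 2.55 RPKM and *ABCB19* with 33.1 ± 2.05 RPKM, whose libraries overlapped, and by *LAX3* with 19.0 ± 0.810 RPKM. The order of the means per exon length was thus the same in both treatments. Scaling by coding length would shift the levels unevenly, since *AUX1* has 1458 coding bases in 2844 exon bases and *ABCB1* has 3861 in 4748. By mean level over all libraries, *AUX1* lay at the 95.2nd and *LAX3* at the 67.6th percentile of the tested genes.

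Summed over the 4 importers, the level was 284 ± 6.39 RPKM in DEX and 190.1 ± 6.14 RPKM in mock libraries (SD, n = 4, exact permutation p = 0.0286, two-sided). *AUX1* made up 44.7% ± 0.342 of this sum in DEX and 41.2% ± 0.308 in mock libraries. The share of *LAX2* was 35.4% ± 0.449 in DEX and 29.9% ± 0.730 in mock libraries. In turn, *LAX1* held 13.9% ± 0.124 in DEX and 18.9% ± 0.912 in mock libraries, and *LAX3* held 6.07% ± 0.324 in DEX and 9.98% ± 0.529 in mock libraries. Each of the 4 shares separated the treatments (exact permutation p = 0.0286 each, also after adjustment over the 4). For *LAX1* and *LAX3* the shares were lower although neither gene was called, since a share falls when the other genes rise. *ABCB1* and *ABCB19* together reached 82.0 ± 1.83 RPKM in DEX and 86.2 ± 1.87 RPKM in mock libraries (exact permutation p = 0.0571).

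**Figure D3:**
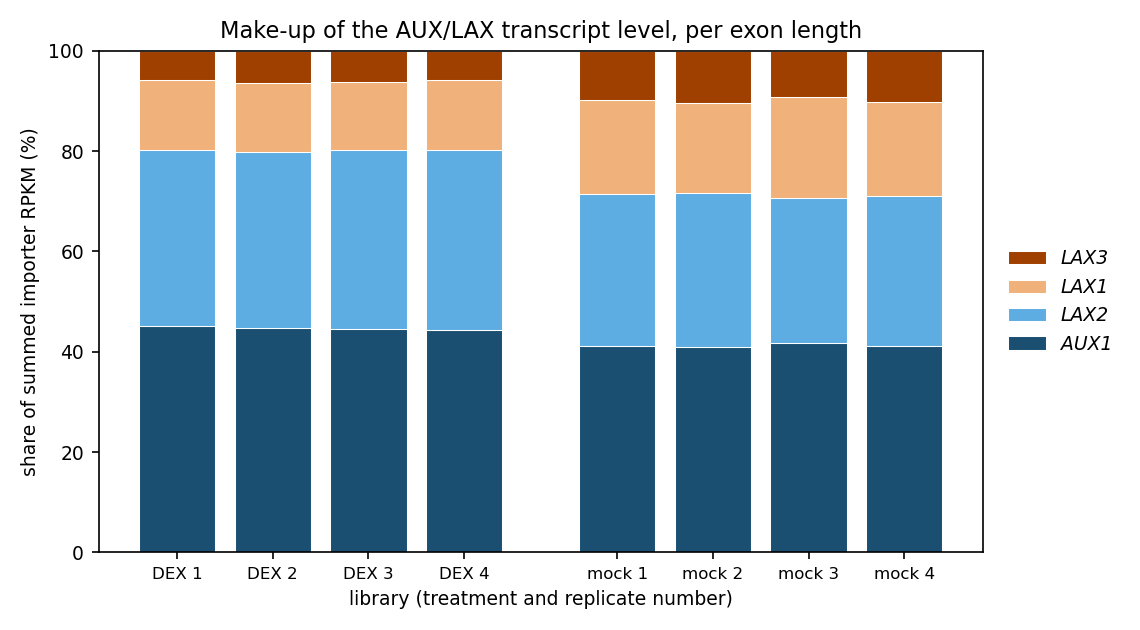
Share of each importer in the summed RPKM of the 4 importers (y axis, percent) for each library (x axis), with the 4 DEX libraries on the left and the 4 mock libraries on the right. *AUX1* and *LAX2* together fill more of each DEX bar than of any mock bar, and *LAX1* and *LAX3* fill less.

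In whole hypocotyls, fewer cells of a type and less RNA per cell cannot be told apart, and the same holds for more. Marker genes of some tissues moved with the treatment. Of 6 markers of leaf and stomata, 5 were tested and 4 were called lower. The summed level of the 6 was between 753 and 905 RPKM in DEX and between 1010.0 and 1420 RPKM in mock libraries. Most of this sum was *RBCS1A*, the tested marker not called, with 671 ± 45.8 RPKM in DEX and 920 ± 134 RPKM in mock libraries. It was lower as well, but by less than 1.5-fold (log2 fold change -0.45, adjusted p = 0.00363, no overlap). *LHCB1.1* averaged 134 RPKM in DEX and 234 RPKM in mock libraries. The defining markers of stomata were low but not at 0, *TMM* with 178 ± 46.2 normalised counts in DEX and 569 ± 90.7 in mock libraries. Among 4 markers of the cambium, *ATHB8* was called higher, with 8514 ± 599.6 normalised counts in DEX and 4968 ± 341 in mock libraries, and the other 3 were not called. *WOX4* had 1471 ± 70.9 normalised counts in DEX and 1700.1 ± 91.7 in mock libraries (log2 fold change -0.21, adjusted p = 0.00731, no overlap), *PXY* had a log2 fold change of 0.15 (adjusted p = 0.0437) and *ANT* one of 0.010 (adjusted p = 0.890). The summed cambium level was between 185 and 200.01 RPKM in DEX and between 164 and 172 RPKM in mock libraries. Of 3 phloem markers, *APL* had a log2 fold change of 0.28 (adjusted p = 0.00146), *SUC2* one of -0.26 (adjusted p = 0.00173), both without overlap, and *SMXL5* one of 0.018 (adjusted p = 0.813). Of 4 xylem markers, *VND6*, a regulator of vessel formation, had 323 ± 16.1 normalised counts in DEX and 439 ± 22.1 in mock libraries (log2 fold change -0.45, adjusted p = 3.36e-04, no overlap), while *VND7*, *IRX3* and *XCP1* had log2 fold changes of 0.012 to 0.17 with adjusted p of 0.102 to 0.907. None of these phloem and xylem markers passed the 1.5-fold threshold. The 3 genes listed as shoot meristem markers summed to between 107 and 110.5 RPKM in DEX and between 73.0 and 81.8 RPKM in mock libraries. Nearly all of this was *STM*, with 108 RPKM in DEX and 75.3 RPKM in mock libraries. *STM* was not called (log2 fold change 0.53, adjusted p = 2.09e-06, no overlap). *CLV3* reached only 0.387 RPKM in DEX and 0.408 RPKM in mock libraries. The sum thus follows *STM* alone and is no measure of shoot meristem tissue. *CLV3* averaged 19.2 ± 4.19 normalised counts in DEX and 20.3 ± 5.11 in mock libraries (adjusted p = 0.706). *WUS* was not tested, with at most 14 raw counts in a DEX and 11 in a mock library. The part of these shifts in the rise of *AUX1* and *LAX2* was not tested.

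The upstream sequence is shown for the 2 called genes, *AUX1* and *LAX2*, and for *ABCB1*, which was not called and holds the same element as *AUX1*. Each window is the 300 bases before the annotated start in the RefSeq genome of TAIR10.1, written 5′ to 3′ on the gene's strand, with motif matches in capitals. The windows are chr2:15972576-15972875 (plus strand), chr2:9033756-9034055 (plus) and chr2:15501426-15501725 (plus).
AUX1: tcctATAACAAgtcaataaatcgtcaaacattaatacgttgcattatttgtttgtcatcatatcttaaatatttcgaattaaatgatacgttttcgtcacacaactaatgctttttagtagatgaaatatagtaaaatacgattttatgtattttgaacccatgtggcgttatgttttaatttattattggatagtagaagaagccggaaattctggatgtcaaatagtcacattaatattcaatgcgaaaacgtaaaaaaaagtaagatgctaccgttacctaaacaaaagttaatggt
LAX2: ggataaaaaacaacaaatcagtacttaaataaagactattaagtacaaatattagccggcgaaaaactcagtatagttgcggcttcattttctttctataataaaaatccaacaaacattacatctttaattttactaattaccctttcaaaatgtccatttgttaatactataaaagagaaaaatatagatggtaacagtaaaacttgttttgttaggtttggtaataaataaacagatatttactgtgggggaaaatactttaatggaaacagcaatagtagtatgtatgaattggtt
ABCB1: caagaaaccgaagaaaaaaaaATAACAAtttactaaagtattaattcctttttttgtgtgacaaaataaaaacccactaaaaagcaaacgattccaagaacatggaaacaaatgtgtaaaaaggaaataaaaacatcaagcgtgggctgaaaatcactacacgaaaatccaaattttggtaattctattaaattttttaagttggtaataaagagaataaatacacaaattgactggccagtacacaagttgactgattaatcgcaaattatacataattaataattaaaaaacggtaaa
The motifs searched, on both strands, were the auxin response elements TGTCTC and TGTCGG, the element ATAACAA, which SMXL6 binds, and the G-box CACGTG. None of these motifs overlaps another in the windows. The window of *AUX1* holds ATAACAA, 296 bases before the start, and that of *ABCB1* holds it 279 bases before. This element occurs in 13.8% of the 300-base windows of all tested genes with a window. *LAX3* has TGTCGG on the opposite strand 46 bases before the start, a motif of 5.32% of windows, and *ABCB19* has TGTCTC 7 bases before, a motif of 12.7% of windows. CACGTG, present in 7.86% of windows, was in none of the 6. The next annotated gene upstream of *LAX1*, AT5G00745, lies 99 bases away. The window of *LAX1* thus includes bases of that gene, at 300 and at 1000 bases. Over 1000 bases, *LAX1* and *LAX2* still held none of the 4 motifs, whereas *LAX3* also had TGTCTC at 835 and CACGTG at 786 bases and *ABCB1* had TGTCGG at 362 bases before the start. At this length TGTCTC is found in 39.9%, TGTCGG in 15.3%, ATAACAA in 38.2% and CACGTG in 15.8% of windows. Among the called genes *AUX1* thus held 1 of the 4 motifs and *LAX2* none, and among the genes not called *ABCB1*, *LAX3* and *ABCB19* held at least 1 and *LAX1* none. These matches describe the letters only.

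Few bases of the 6 genes could be mistaken for a relative. The coding sequences of the importers are between 75.6% and 79.57% identical to each other, and those of *ABCB1* and *ABCB19* are 69.69% identical. The longest run of identical bases in any of these pairs was 32, and 0 of the 50-base words in the exons of the 6 genes occur elsewhere in the nuclear genome. None of the 6 genes shares an exon base with another annotated gene on either strand.

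The other full-size ABCB genes include further auxin carriers. Of 19 such genes, 14 were tested, 2 were called higher and 0 lower, as with DESeq2, and their median log2 fold change was 0.086. At an unadjusted p under 0.05, 5 of the 14 were higher and 2 lower, where 20.9% of all tested genes fell in each direction. *ABCB15*, which takes part in auxin transport in the inflorescence stem, rose by 1.72-fold. It had 19122, 18598, 19304 and 19768 normalised counts in the DEX libraries, against 10842, 10738.5, 11474 and 11681 in the mock libraries. The change was 0.78 on the log2 scale (SE 0.043, adjusted p = 8.08e-08). At 75.1 RPKM in DEX and 43.7 RPKM in mock libraries, its level was above that of *ABCB1* in DEX and below it in mock libraries. *ABCB16*, a neighbour of *ABCB15* in a gene cluster, rose by 1.93-fold at a low level, with 80.6, 119, 118 and 118 normalised counts in the DEX libraries, against 64.2, 66.1, 42.2 and 56.6 in the mock libraries (adjusted p = 0.00131). Of the 50-base words in its exons, 0.695% occur elsewhere, against 0.258% for *ABCB15*. With only mock replicates 2 and 4, *ABCB16* had an adjusted p of 0.0134 and was not called.

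*ABCB4*, which transports auxin in the root epidermis, had 2739.9, 2935, 3207 and 2988 normalised counts in the DEX libraries, against 2235, 2045, 2109 and 2406 in the mock libraries. The treatments did not overlap, but the change of 1.35-fold stayed under the threshold (adjusted p = 1.09e-04). Of its exon bases, 3.63% are shared with 2 overlapping genes. Counting ignored strand and used the union mode, which drops reads that hit several genes, so reads from these bases may be missing. *ABCB14*, also known from auxin transport in the inflorescence stem, had a log2 fold change of 0.22 (adjusted p = 0.0995), and *ABCB21*, a relative of *ABCB4*, one of 0.098 (adjusted p = 0.536). *ABCB13*, named after its values were seen, averaged 12.9 normalised counts in DEX and 41.2 in mock libraries, a log2 fold change of -1.67 (adjusted p = 5.19e-04). Its mean count was below the minimum for a call, and 3.63% of its 50-base words occur elsewhere.

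Carriers need helpers to reach the membrane, and kinases set their activity. Of the 16 trafficking and kinase genes listed, 0 were called by edgeR and 1 by DESeq2 (*WAG2*), 4 were higher and 1 lower at an unadjusted p under 0.05 (20.9% of all tested genes in each direction), and their median log2 fold change was 0.055. *TWD1* averaged 1653 normalised counts in DEX and 1576 in mock libraries (log2 fold change 0.069, adjusted p = 0.255). *AXR4*, which AUX1 needs to leave the endoplasmic reticulum, averaged 5341 normalised counts in DEX and 4901 in mock libraries (log2 fold change 0.12, adjusted p = 0.0450). The kinase genes *PID* and *WAG2*, whose products phosphorylate PIN proteins, had an adjusted p under 0.01 but changed by less than 1.5-fold. *PID* had 1906, 2019, 1899.8 and 2056.5 normalised counts in the DEX libraries, against 1513, 1335, 1593 and 1711 in the mock libraries (log2 fold change 0.36, adjusted p = 0.00124). *WAG2* had 137, 139, 146 and 173 normalised counts in the DEX libraries, against 119.8, 90.9, 87.3 and 96.4 in the mock libraries. Its change of 1.499-fold lay just under the threshold (adjusted p = 0.00461), and it was called, with log2 fold changes of 0.62, 0.62 and 0.71, when DEX replicate 1, DEX replicate 2 or mock replicate 1 was left out.

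Of 10 further auxin carriers, 8 were tested, 1 was called higher and 0 lower, as with DESeq2. At an unadjusted p under 0.05, 2 of the 8 were higher and 1 was lower, with the same 20.9% of all tested genes in each direction. The called gene was *WAT1*, whose product releases auxin from the vacuole and is needed for secondary walls in stem fibres. *WAT1* had 43653, 48608, 48778 and 47573 normalised counts in the DEX libraries, against 27986, 28753, 29887 and 30348 in the mock libraries (log2 fold change 0.69, SE 0.049, adjusted p = 5.50e-07). At 407 RPKM in DEX and 253 RPKM in mock libraries it was more abundant per length than any of the 6 transporters. Tested against the 1.5-fold threshold itself, *WAT1* had an adjusted p of 0.137 and was not called. The PILS genes of the endoplasmic reticulum and the ABCG genes in the list were not called, with a median log2 fold change of -0.042 over the 8 tested genes.

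**Figure D4:**
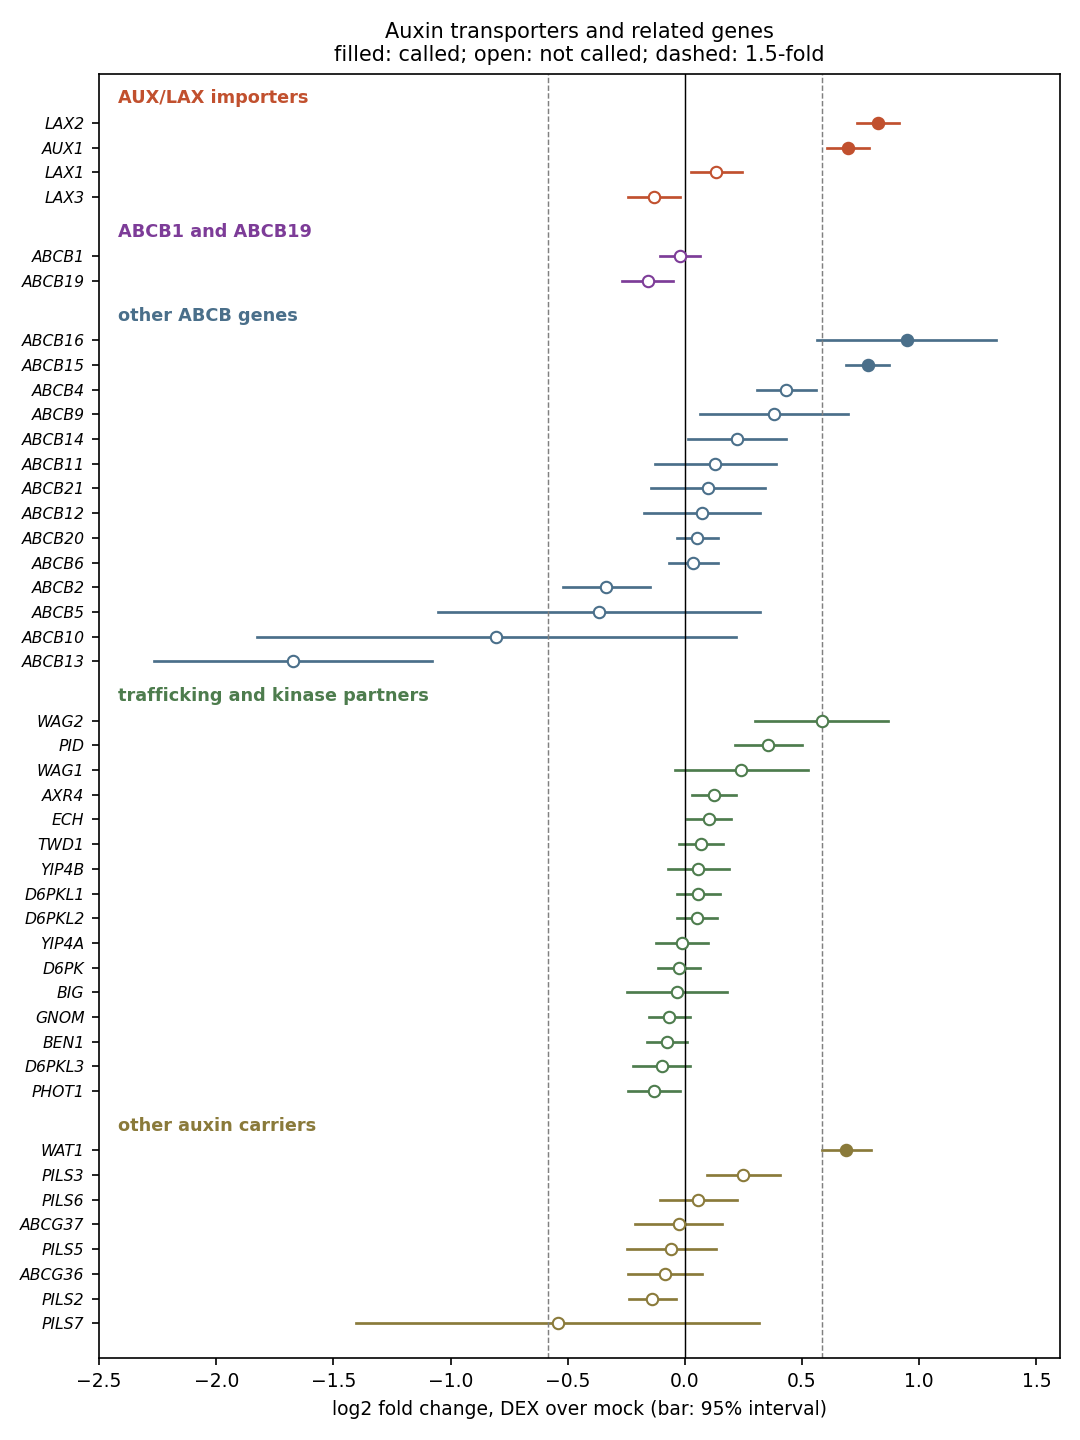
Log2 fold change (x axis, DEX over mock) with its 95% interval for the tested genes of the importers, *ABCB1* and *ABCB19*, the other ABCB genes, the partners and the other auxin carriers. Filled points are called and dashed lines mark 1.5-fold: the called genes are *AUX1*, *LAX2*, *ABCB15*, *ABCB16* and *WAT1*, all higher in DEX.

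To describe which genes had a pattern like that of each transporter, Pearson correlations of log2 normalised counts over the 8 libraries were computed against 19157 genes with a mean count over 50. The 8 points share the split into treatments and each library's scaling, so these values are descriptions. *AUX1* and *LAX2* followed each other closely (r = 0.996), and only 6 genes were closer to *AUX1* and 9 closer to *LAX2*. The genes closest to *AUX1* were AT2G41820, AT1G64625 and AT5G47800 (r between 0.997 and 0.998), and those closest to *LAX2* were AT5G44565, AT4G36550 and AT2G41820. AT2G41820, near the top of both lists, averaged 14684 normalised counts in DEX and 9147 in mock libraries. *LAX1* was most like AT1G07300, AT1G77400 and AT1G09945 (r between 0.974 and 0.981), and *LAX3* most like AT3G58830, AT3G62360 and *SFH3* (r between 0.962 and 0.993). The nearest genes were AT3G27270, *VAMP727* and AT1G73440 for *ABCB1* (r between 0.951 and 0.959) and AT1G64580, AT2G09795 and *HTH* for *ABCB19* (r between 0.986 and 0.991). With the treatment means removed, *AUX1* and *LAX1* varied together among the 8 libraries (r = 0.90), *AUX1* and *LAX2* less so (r = 0.60), and *LAX1* and *ABCB19* in opposite directions (r = -0.79).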

How the data were processed

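The 6 genes and the lists of related genes were chosen with earlier results of these data known. Polyadenylated RNA of whole hypocotyls was sequenced. The deposited raw counts are reads per gene, which the authors mapped with STAR (2.7.8a) to TAIR10, per the labels, and counted without regard to strand with summarizeOverlaps. By the study's methods, only reads mapped to a single place were kept, and counting used the union mode. A second deposited table, these counts after DESeq2 1.34.0 size factors, was not used. All 37573 rows match RefSeq loci of TAIR10.1, which gave names, exon lengths and upstream windows.

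Normalised counts and RPKM use TMM factors, a scaling of library sizes. Treatments were compared over 21289 genes in 8 libraries with edgeR 4.0.16 (glmQLFit and glmQLFTest in R 4.3.3, filterByExpr, robust, no replicate block) and Benjamini-Hochberg adjustment. Standard errors are the size of the log2 fold change over the root of the F statistic. Ratios between genes and importer shares within a library were compared by two-sided exact permutation over 70 splits. Same-treatment libraries differed by more than sampling noise, so none was counted as a duplicate.

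Genes named are the 6 transporters, list genes called, *TWD1*, *AXR4*, *ABCB4*, *ABCB14*, *ABCB15*, *ABCB21* and *WAT1* whatever their values, genes with an adjusted p under 0.01 in lists with 3 or fewer of these, and the 3 genes most like each transporter. Alternatives were DESeq2 1.42.0, other scaling, filters and thresholds, a replicate block, thinned libraries and leaving out each library. For the shares, coding length was also used, and for the pairs, a pseudocount. Mock replicates 2 and 4 alone were tried after the data were seen.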

Additional observations from a re-analysis of the deposited data

Results flagged for a closer look

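*LAX1* in the DEX libraries was the 1 of 20 groups examined (6 genes and 4 shares in each treatment) in which 1 library stood apart by Dixon's test. The gap from DEX replicate 1, at 5705 normalised counts, to the nearest other DEX library was 0.896 of the whole range of the 4 libraries. The other 3 lay between 5905 and 5928. Chance flags about 1 in 20 groups. Without this library the log2 fold change of *LAX1* was 0.15, and it was still not called.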

How the results depend on the processing

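Of 414 values compared over the alternatives, 390 were rated as unchanged. For log2 fold changes this meant the same direction and call, and for counts of genes a value within 1.5 times. Differences between pairs and shares have no call. With a pseudocount, coding length or sign flips, unchanged meant the same direction and the same outcome of the exact permutation test. Their values with 1 library left out were not tested, and all kept their direction and were rated as unchanged. *LAX2* was called in every fit run. *AUX1* was called in all of them except the test against the 1.5-fold threshold (log2 fold change 0.6957, adjusted p = 0.0498), which left 1 of the 6 transporters called. Leaving out 1 library at a time gave log2 fold changes of 0.67 to 0.71 for *AUX1*, 0.81 to 0.85 for *LAX2*, 0.090 to 0.17 for *LAX1*, -0.17 to -0.10 for *LAX3*, -0.032 to 0.0036 for *ABCB1* and -0.19 to -0.12 for *ABCB19*. The value of 0.0036 for *ABCB1* came without DEX replicate 1 and was the only change of direction. Scaling by library totals or upper quartiles, which moved the median of all genes to -0.052 and -0.055, gave 0.089 and 0.086 for *LAX1*, -0.066 and -0.069 for *ABCB1*, -0.18 and -0.18 for *LAX3* and -0.21 and -0.21 for *ABCB19*. The adjusted p of *ABCB19* was then 0.00777 and 0.00574, and 0.00970 without mock replicate 3, always under 1.5-fold. With mock replicates 2 and 4 only, *LAX1* had a log2 fold change of 0.21 (adjusted p = 0.0130). Over all tested genes, 2320 were higher and 1850 lower at an adjusted p under 0.01 alone, and 531 and 72 when tested against the fold threshold. That test left 1 of the other ABCB genes (*ABCB15*) and 0 of the other carriers called. The threshold on p alone gave 1 other ABCB gene lower (*ABCB13*) and 2 partners higher (*PID* and *WAG2*). With mock replicates 2 and 4 only, 1 other ABCB gene was called higher. The count of partners called higher was 1, always *WAG2*, with DESeq2, with RLE size factors, with a replicate block and with mock replicates 2 and 4 only, and it was 0 to 1 when 1 library was left out (1 without DEX replicate 1, DEX replicate 2 or mock replicate 1). The labels do not say whether the replicate numbers pair the libraries. Same-numbered libraries had deviations from their treatment means with r of 0.023, 0.12, 0.11 and -0.045. Differently numbered libraries had r between -0.2254 and 0.2574, so these values cannot tell whether the libraries were paired. With the numbers as a replicate block, *AUX1* had a log2 fold change of 0.70 and *LAX2* one of 0.82, and 984 genes were called higher and 387 lower. Exact sign-flip permutation tests of the 7 pairs by replicate number cannot go below p = 0.125, so the differences of 0.5585 (*AUX1* minus *LAX1*), -0.1281 (*AUX1* minus *LAX2*), 0.8327 (*AUX1* minus *LAX3*), -0.6866 (*LAX1* minus *LAX2*) and 0.9608 (*LAX2* minus *LAX3*) missed 0.05 in this replicate block. Counting error alone would give standard errors of 0.0078 to 0.020 for the log2 fold changes of the 6 genes, against fitted ones of 0.0399 to 0.051.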
